A study of Mus musculus with 11 samples.

Results

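Glutathione S-transferases (GSTs) are the enzymes that join the tripeptide glutathione to reactive, fat-soluble compounds so that the products can leave the cell. The cytosolic enzymes pair up into dimers and fall into classes, named alpha, mu, pi and theta among others, whose genes lie in clusters formed by duplication. The liver is rich in them, and there they act on drugs, plant toxins, environmental chemicals and the aldehydes that form when lipids are oxidized. The genes described here were chosen by name as 10 members of this family, Gsta2, Gsta3, Gsta4, Gstm1, Gstm2, Gstm3, Gstm6, Gstp1, Gstt1 and Gstt2, out of 36788 gene identifiers in the deposited table. All 10 were found and all 10 were expressed strongly enough to be tested. The choice was made with earlier results of these data known.

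The data are RNA-seq libraries of whole liver from 11 female mice labelled WT C57BL/6 and older than 12 weeks. Every mouse had been ovariectomized (OVX) and fed a high-fat diet (HFD), and then 5 received daily injections of follicle-stimulating hormone (FSH) while 6 received saline. The comparison asks how FSH treatment changed the liver transcriptome of OVX/HFD females. The labels and the methods differ on 2 points, since the labels state a digestion of the liver with papain where the methods name only a column purification, and the methods place all mice of the study on a mixed background that includes a 129 strain. Ovaries were absent from both groups, so the comparison carries no information on intact females. Expression is given in CPM, the reads on a gene scaled to a common library total, and the libraries held between 10801891 and 19909327 reads on genes.

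The 4 mu class members were close copies of each other, and this matters for how their reads can be told apart. In the GENCODE M21 annotation of GRCm38 they lie within a cluster on the minus strand of chromosome 3, in the order Gstm6 (chr3:107938847-107943749), Gstm3 (chr3:107963696-107969283), Gstm2 (chr3:107981702-107986453) and Gstm1 (chr3:108012255-108017973). Over their 654 coding bases Gstm1 was 89.5% identical to Gstm3, 85.9% to Gstm2 and 82.9% to Gstm6. The first 60 coding bases of each are given from the GENCODE M21 transcripts, 5′ to 3′, with capitals at the 19 positions where the 4 are not all alike.
Gstm1: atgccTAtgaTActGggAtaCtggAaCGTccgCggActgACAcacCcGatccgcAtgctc
Gstm2: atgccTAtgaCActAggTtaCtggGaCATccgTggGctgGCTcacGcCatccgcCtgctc
Gstm3: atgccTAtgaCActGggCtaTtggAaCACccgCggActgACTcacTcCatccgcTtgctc
Gstm6: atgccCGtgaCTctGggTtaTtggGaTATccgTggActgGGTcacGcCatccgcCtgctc
The differences were spread along the whole stretch. Of all windows of 100 bases in the main transcript, 7.73% of those in Gstm1, 0.622% in Gstm2, 13.8% in Gstm3 and 2.47% in Gstm6 also occurred in a transcript of another gene.

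Outside the mu class the members differed more in how unique they were. Gstt1 (chr10:75783813-75798584) and Gstt2 (chr10:75831114-75837424) are theta genes on the minus strand of chromosome 10 with 60.4% identity in their coding sequence, and neither shared any window of 100 bases with another gene. Gsta3 (chr1:21240589-21265661, plus strand) and Gsta4 (chr9:78182774-78209349, plus strand) also shared none, although a predicted gene, Gm28836, overlaps Gsta3 on the other strand. Gsta2 (chr9:78331018-78355788, minus strand) shared 35.0% of its windows with Gsta1 and 2 predicted genes, and its coding sequence was 97.6% identical to that of Gsta1. Gstp1 (chr19:4035407-4037985, minus strand) shared 52.8% of its windows with Gstp2 and a pseudogene, with 98.1% coding identity to Gstp2. Values for Gsta2 and Gstp1 are therefore uncertain as to which copy the reads came from. The handling of strand was not given in the sources used here, so reads on any bases where Gsta3 and Gm28836 overlap could not be told apart. Whether their exons overlap was not examined.

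FSH raised 5 of the 10 members, all 4 mu class genes and the theta gene Gstt2, and lowered none. The test was limma on log2(CPM + 0.5), with an adjusted p under 0.05 after Benjamini-Hochberg correction over all 12733 genes tested, and fold changes are on that log2 scale. By the same test 10.6% of all tested genes changed in either direction, 6.19% rising and 4.41% falling with FSH. The median log2 fold change was 0.47 over the 10 members and 0.02 over all tested genes. The members were picked with earlier results of these data known, so setting them against all tested genes is not a neutral comparison. The part of that choice in the difference was not tested. Among the 16 other family genes tested, 4 rose and the median was 0.14. The study's methods also ask for a log2 fold change beyond 1 in either direction. By limma 0 of 10 members passed both thresholds, against 1.83% of all tested genes, and edgeR likewise gave 0. At an unadjusted p under 0.05 limma counted 6 members, where 25.1% of all tested genes passed. On reads recovered from the CPM values edgeR counted 7 members at that level, against 26% of all tested genes, and 4 at an adjusted p under 0.05, against 11.3%. Without FSH mouse 3 or without FSH mouse 4 the count of members that rose was 3 in place of 5, since Gstm1 and Gstm3 no longer passed. Because the libraries are bulk tissue, more RNA per cell and more cells of an expressing type cannot be told apart.

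**Figure D1:**
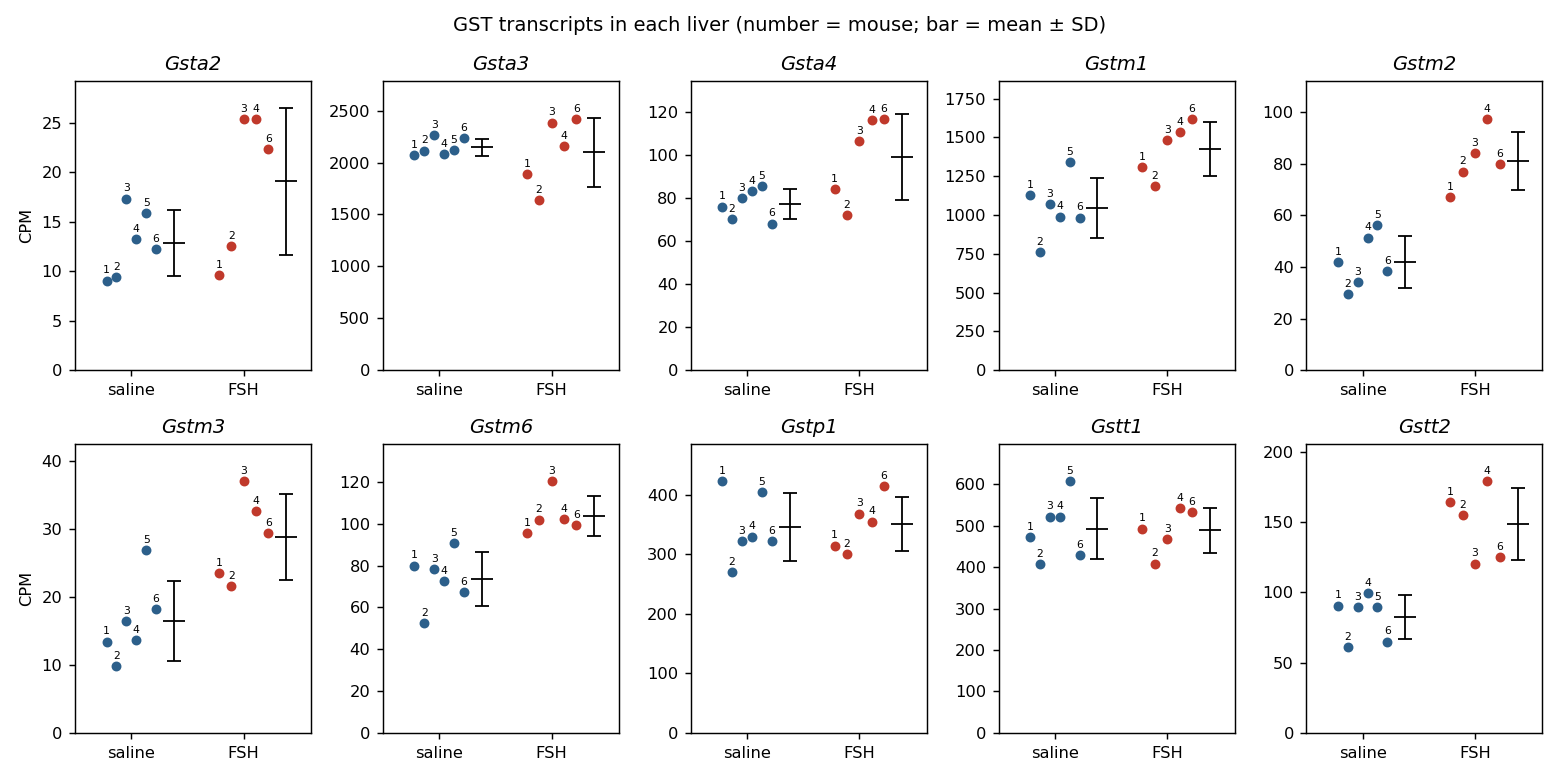
Expression of the 10 GST members in each liver, in CPM on linear axes that start at 0. Each point is 1 mouse with its number, blue for saline (n = 6) and red for FSH (n = 5), and the bar beside the points is the mean ± SD. The points of Gstm2, Gstm6 and Gstt2 do not overlap between the groups.

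Gstm2 showed the largest log2 fold change of the 10 members. Its level was 67.0, 77.0, 84.3, 97.5 and 79.8 CPM in FSH mice 1, 2, 3, 4 and 6, and from 29.5 to 56.3 CPM with a median of 40.2 in the saline group. All 5 FSH livers lay above all 6 saline livers, a separation in this direction that 3.95% of all tested genes showed. The means were 81.1 ± 11.1 CPM (SD, n = 5) and 41.9 ± 10.2 CPM (SD, n = 6), a fold of 1.93. The log2 fold change was 0.97 (SE 0.15, limma adjusted p = 0.00113), with an exact two-sided permutation p of 0.00433 where 462 splits of the livers allow no less than 0.00216. It exceeded 1 without FSH mouse 1, saline mouse 4 or saline mouse 5.

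Gstm6 was separated just as fully at a smaller fold. FSH mice 1, 2, 3, 4 and 6 held 95.4, 102, 120, 102 and 99.4 CPM, while the saline livers ranged from 52.5 to 90.9 CPM with a median of 75.5. The FSH livers were all higher, and 4 of them lay within a narrow band around 100 CPM with FSH mouse 3 above it. The log2 fold change was 0.51 (SE 0.12, limma adjusted p = 0.0144, exact permutation p = 0.00433), and the gene was called under all 22 alternative settings tried.

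Gstm3 rose by a larger fold than Gstm6, with overlap between the groups. It was measured at 23.6, 21.7, 37.0, 32.6 and 29.4 CPM in FSH mice 1, 2, 3, 4 and 6, and at 9.82 to 26.9 CPM with a median of 15.0 in saline. Saline mouse 5, the highest of its group, lay above FSH mice 1 and 2. The log2 fold change was 0.84 (SE 0.21, limma adjusted p = 0.0193, exact permutation p = 0.013). The call was lost without FSH mouse 3 or FSH mouse 4, where the adjusted p reached 0.0579.

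Gstm1, whose product is a major mu enzyme of mouse liver, was the most abundant of the mu members, also per kb of exons. FSH mice 1, 2, 3, 4 and 6 held 1308, 1186, 1481, 1533 and 1620 CPM, and the saline livers lay between 760 and 1342 CPM with a median of 1029. Only saline mouse 5 reached into the FSH range, above FSH mice 1 and 2. The log2 fold change was 0.46 (SE 0.13, limma adjusted p = 0.0358, exact permutation p = 0.013). This is the least stable of the member calls, for it was lost in 13 of 22 alternatives, with adjusted p between 0.00894 and 0.0843 and log2 fold changes between 0.37 and 0.54. Leaving out FSH mouse 1, 3, 4 or 6 or saline mouse 2, 3, 4 or 6 ended the call, as did 5 other settings, TMM scaling and edgeR among them.

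Among the theta genes, Gstt2 rose while no difference was detected for Gstt1. Theta enzymes lack the mu class's strength toward the usual laboratory substrates, and Gstt1 is known for conjugating small halogenated compounds. Gstt2 was at 164, 155, 120, 179 and 125 CPM in FSH mice 1, 2, 3, 4 and 6, and at 61.2 to 99.8 CPM with a median of 89.4 in saline. The FSH livers were all above the saline livers, with mice 3 and 6 the lowest of them. The means were 149 ± 25.3 CPM (SD, n = 5) and 82.5 ± 15.6 CPM (SD, n = 6), a fold of 1.80. The log2 fold change was 0.85 (SE 0.14, limma adjusted p = 0.00162), the exact permutation p was 0.00216, the smallest these groups can give, and the call held in all 22 alternatives.

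Gstt1 was expressed at 493, 408, 468, 542 and 533 CPM in FSH mice 1, 2, 3, 4 and 6, and at 406 to 607 CPM with a median of 497 in saline. The FSH livers all lay within the saline range. The log2 difference was -0.01 with a 95% interval from -0.24 to 0.23 (limma adjusted p = 0.983). Set against Gstt1 in the same liver, Gstt2 amounted to between 14.7% and 19.1% in saline and between 23.4% and 37.9% in FSH livers. These ratios of CPM did not overlap, and they are given without a test because the pair was picked once its values were known.

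The alpha class is built from enzymes that handle bulky toxins and lipid peroxides, and none of its members met the threshold. Gsta3, which in mice is known for detoxifying the epoxide of aflatoxin, was the member with the most reads in every liver. FSH mice 1, 2, 3, 4 and 6 held 1887, 1638, 2384, 2160 and 2422 CPM and the saline livers 2071 to 2267 CPM with a median of 2117. FSH mice 1 and 2 lay below the saline range, mice 3 and 6 above it and mouse 4 within it, and the coefficient of variation was 15.9% with FSH against 3.84% with saline. The log2 difference was -0.05 with a 95% interval from -0.28 to 0.18 (limma adjusted p = 0.825).

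Gsta4, whose enzyme conjugates hydroxynonenal, an aldehyde from oxidized lipids, was at 84.3, 72.3, 106, 116 and 117 CPM in FSH mice 1, 2, 3, 4 and 6. In saline it was at 68.1 to 85.5 CPM with a median of 78.0. FSH mice 3, 4 and 6 lay above every saline liver, whereas FSH mice 1 and 2 lay within the saline range. The log2 fold change of 0.34 (SE 0.12) had a 95% interval from 0.08 to 0.61 but did not pass correction (limma adjusted p = 0.0971, exact permutation p = 0.039). Without FSH mouse 2 it passed, and the adjusted p fell as low as 0.0194 over all alternatives.

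Gsta2 showed the same split of livers. It was at 9.59, 12.5, 25.4, 25.4 and 22.3 CPM in FSH mice 1, 2, 3, 4 and 6, and at 9.05 to 17.3 CPM with a median of 12.7 in saline. FSH mice 3, 4 and 6 were again above all saline livers and mice 1 and 2 among them. The log2 difference was 0.49 with a 95% interval from -0.04 to 1.02 (limma adjusted p = 0.238).

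Gstp1, the pi class member, differed by less than the spread between mice. Pi enzymes conjugate electrophiles such as the reactive product of acetaminophen, and the mouse carries 3 neighbouring copies of the gene. Gstp1 was at 314, 301, 368, 355 and 415 CPM in FSH mice 1, 2, 3, 4 and 6, and at 271 to 422 CPM with a median of 326 in saline. The FSH livers again all lay within the saline range. The log2 difference was 0.03 with a 95% interval from -0.23 to 0.29 (limma adjusted p = 0.916).

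**Figure D2:**
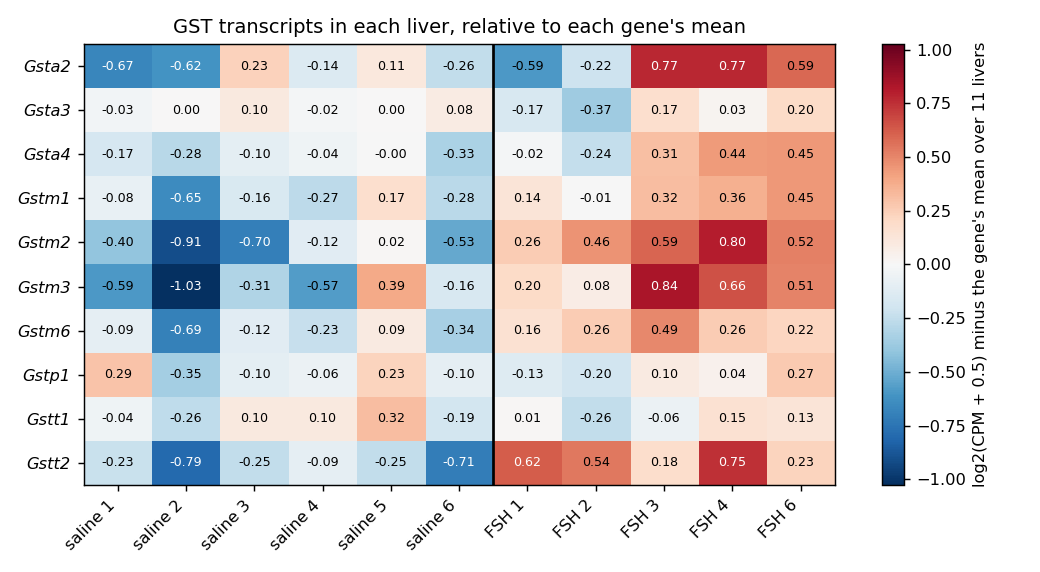
Each cell gives a liver's log2(CPM + 0.5) minus the mean of that gene over all 11 livers, with saline livers left of the line and FSH livers right of it. Red is above the gene's mean and blue below. Saline mouse 2 is the lowest saline liver for 7 of the 10 members, and FSH mice 1 and 2 are the lowest FSH livers for the 3 alpha genes.

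The livers varied together within a group. Saline mouse 2 was the lowest saline liver for 7 of the 10 members and below its group mean for all 10, with a median deviation of -0.40 on the log2 scale, against 0.02 over all tested genes. Saline mouse 5 was the highest for 6 members, with a median deviation of 0.32. In the FSH group mouse 2 was the lowest for 6 members and mouse 1 for 3, while mice 4 and 6 were the highest for 4 members each and mouse 3 for 2. Without both livers numbered 2, an alternative chosen after the data were seen, 6 members were called, the 5 above and Gsta4.

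Levels can be set side by side between genes only per length, and the order of the leading pair depended on the length used. Per kilobase of the union of annotated exons, Gstm1 led with a mean of 968 CPM per kb in FSH and 709 in saline livers, followed by Gsta3 (483 and 495), Gstt1 (320 and 323) and Gstp1 (227 and 223). Per kilobase of the main coding transcript Gsta3 came first with 1440 and 1470 and Gstm1 next with 1110 and 811. The remaining 6 were at least an order lower in the mean than Gstm1 per kb of exons, from Gsta4 (78.4 and 60.9) through Gstm6 (52.2 and 37.0), Gstm2 (48.3 and 25.0), Gstt2 (35.8 and 19.9) and Gstm3 (22.0 and 12.5) to Gsta2 (16.2 and 10.9). Neighbours among these 6 overlapped in their ranges over the 11 livers, as did Gsta3 with Gstm1, Gsta3 with Gstt1 and Gstt1 with Gstp1.

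Of the class shares, only that of the mu class did not overlap between the groups. The 4 mu members together drew 33.2% to 34.9% of the reads on the 10 genes in FSH livers (median 33.6%) and 22.5% to 31.3% in saline livers (median 26.5%). Their summed level did overlap, at 1386 to 1829 CPM with FSH and 851.7 to 1516 CPM with saline, where saline mouse 5 lay above FSH mice 1 and 2. The 3 alpha members drew 43.4% to 48.4% with FSH and 45.9% to 58% with saline. Theta took 11.3% to 14.8% against 11.6% to 14.6%, and pi 6.9% to 7.6% against 7.15% to 9.59%. All 10 genes together made up 0.397% to 0.546% of all reads in FSH livers and 0.379% to 0.484% in saline livers, so the totals overlapped. As sums over chosen genes, these shares were not tested.

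**Figure D3:**
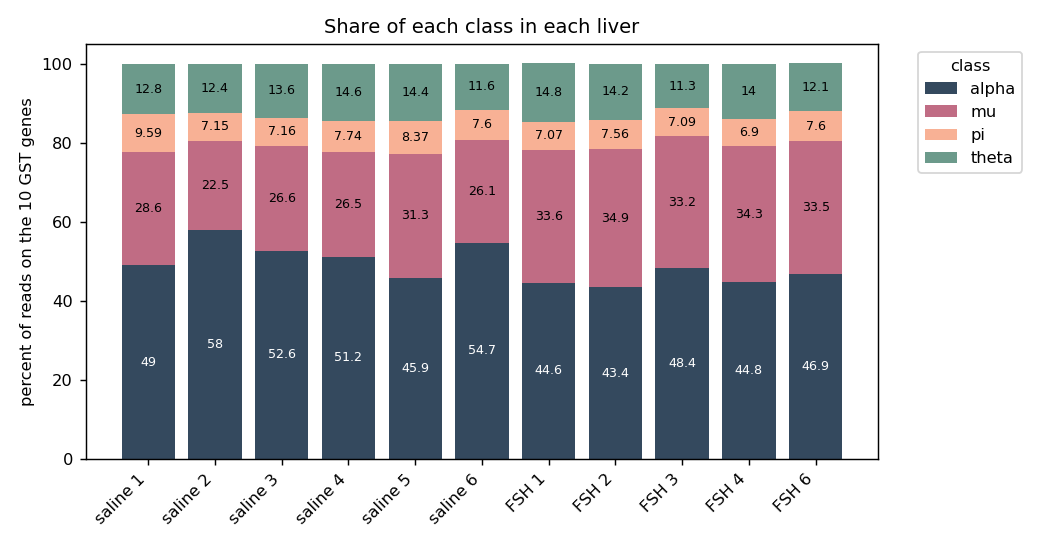
Share of each class in the reads that fell on the 10 GST members, 1 stacked bar per liver, in percent with the values printed. The mu share is 33.2% or more in each of the 5 FSH livers and 31.3% or less in each of the 6 saline livers.

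The wider family includes the membrane-bound proteins Ptges, Ltc4s and Alox5ap, the last of them no enzyme. Of 20 further genes of this family, 16 were expressed strongly enough to be tested. Among them 4 rose and 0 fell, where 6.19% of all tested genes rose and 4.41% fell. The median log2 fold change was 0.14. Gstp3, the distant pi copy with 72.8% coding identity to Gstp1, was at 41.7, 26.8, 58.0, 51.8 and 44.4 CPM in FSH mice 1, 2, 3, 4 and 6, and at 16.9 to 34.9 CPM with a median of 19.7 in saline. Saline mouse 1 alone lay within the FSH range. It was the single family gene past both thresholds (log2 fold change 1.01, SE 0.20, limma adjusted p = 0.0049), and its log2 fold change was between 0.90 and 1.18 over the alternatives. It fell short of 1 with TMM scaling, in edgeR, and without FSH mouse 3, 4 or 6 or saline mouse 2, 3, 4 or 6, among others. As a percent of Gstp1 in the same liver it went from 5.25–8.25 in saline to 8.91–15.7 with FSH.

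The remaining 3 were named once their values were known. Gstt3 (149 ± 16.5 CPM with FSH, n = 5, and 93.2 ± 9.90 CPM with saline, n = 6, SD) rose by 0.67 on the log2 scale (limma adjusted p = 0.000463) with no overlap, though 23.9% of its windows of 100 bases also lie in Gm20441, a gene annotated over it on the same strand. Gstm4 (37.9 ± 4.06 and 28.9 ± 2.93 CPM) rose by 0.38 (limma adjusted p = 0.0228), a call lost without FSH mouse 1, 2 or 3. Gstz1, which catalyses a step of tyrosine breakdown, rose by 0.23 (limma adjusted p = 0.0442) and lost the call in 17 of 22 alternatives, including without FSH mouse 1, 2, 3 or 4 or any 1 saline mouse. Without FSH mouse 1, 2 or 3, 2 of the 20 further genes were called in place of 4. By class, 5 of 7 mu genes rose, 2 of 3 tested theta genes, 1 of 3 pi genes and 0 of 4 alpha genes, where 6.19% of all tested genes rose. Without FSH mouse 3 the calls of Gstm1, Gstm3 and Gstm4 were all lost. Among the 3 further mu genes only Gstm4 was called, and Gstm5 and Gstm7 had log2 differences of 0.27 and 0.21 (limma adjusted p = 0.211 and 0.11). None of the 4 tested membrane-bound family genes (Mgst1, Mgst3, Ltc4s and Alox5ap) passed the test in limma, 0 of 4 against 10.6% of all genes. Mgst1 was at 2772 ± 269 CPM with FSH and 2769 ± 415 CPM with saline (limma adjusted p = 0.971).

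**Figure D4:**
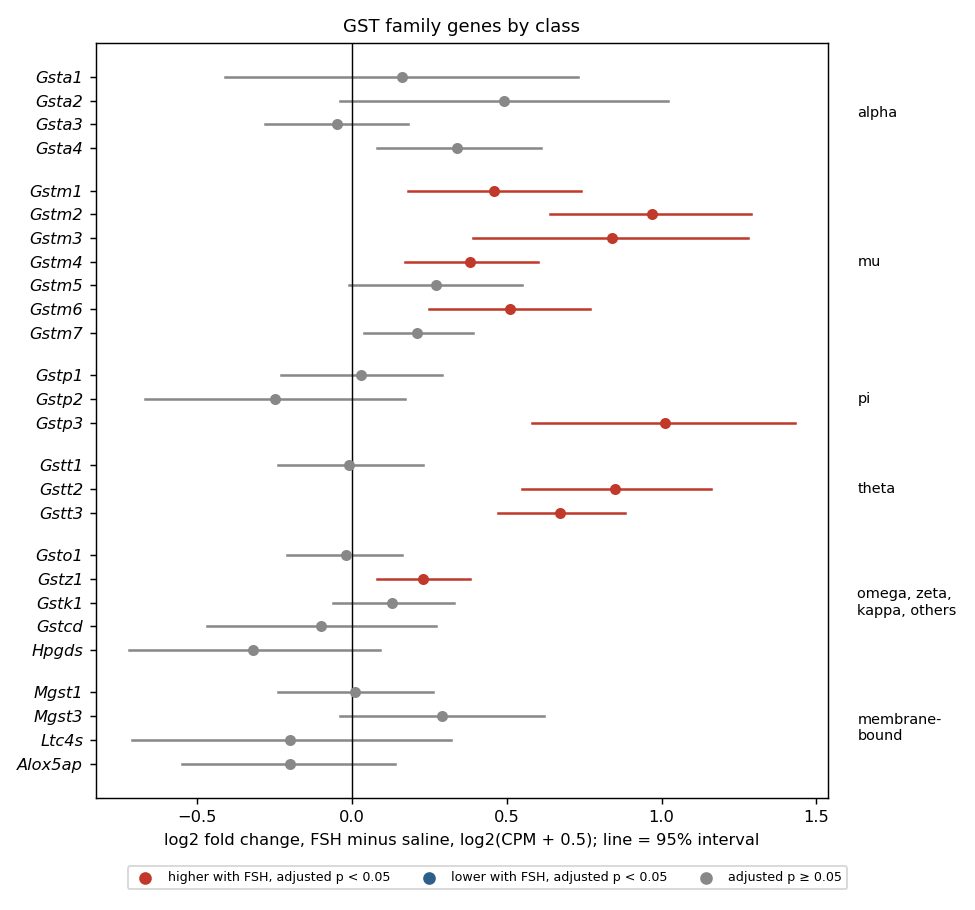
Log2 fold change of FSH against saline with its 95% interval for the 26 tested genes of the GST family, ordered by class. Red marks an adjusted p under 0.05 with higher expression in FSH livers, and grey an adjusted p of 0.05 or more. The 9 red genes lie in the mu, pi, theta and zeta classes.

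Because several members moved together, their promoters were searched for 3 motifs on both strands. RefSeq promoters of GRCm38.p6, from 250 bases before to 50 bases after a transcription start, were matched for 8 of the 10 members, all except Gsta4 and Gstt2. The motifs were TGACNNNGC, the core of the antioxidant response element bound by NRF2, TTANGTAA, the D-box of the clock output factors DBP, TEF and HLF, and the glucocorticoid response element. The first was found in 12.4% of 32851 promoters, the D-box in 2.32% and the glucocorticoid response element in 0.475%. The search does not bear on sites outside these windows. Among the members the only match was an antioxidant response element core in Gsta3, which did not pass the test, and none of the mu members that rose had a match. The upstream bases of Gsta3 (chr1:21240335-21240584, plus strand) are shown with that match in capitals, at -121 to -113 from the start, beside those of the first RefSeq start of Gstm1 (chr3:108017974-108018223, minus strand), which holds none of the 3 motifs, both 5′ to 3′.
Gsta3: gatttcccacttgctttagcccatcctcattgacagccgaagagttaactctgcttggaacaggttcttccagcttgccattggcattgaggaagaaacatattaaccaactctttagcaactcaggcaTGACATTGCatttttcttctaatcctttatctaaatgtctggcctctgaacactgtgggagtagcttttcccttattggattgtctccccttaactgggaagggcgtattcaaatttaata
Gstm1: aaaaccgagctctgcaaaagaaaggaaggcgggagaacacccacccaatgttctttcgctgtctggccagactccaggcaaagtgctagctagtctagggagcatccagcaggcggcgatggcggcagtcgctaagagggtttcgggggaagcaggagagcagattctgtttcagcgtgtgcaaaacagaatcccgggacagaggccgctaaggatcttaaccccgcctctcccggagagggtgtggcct

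Of 20 genes for transcription factors that act on GST genes, counting the NRF2 inhibitor Keap1 with them, 2 rose and 1 fell. These counts lie close to the shares over all tested genes, 6.19% rising and 4.41% falling. Dbp, a clock output factor, rose from 4.30 ± 0.66 CPM (SD, n = 6) to 83.0 ± 34.8 CPM (SD, n = 5), a log2 fold change of 4.02 (SE 0.23, limma adjusted p = 1.15e-07). Its level was 121, 115.5, 56.5, 79.6 and 42.6 CPM in FSH mice 1, 2, 3, 4 and 6, highest in mice 1 and 2. The study's methods do not give the hour at which livers were taken, so hour and treatment cannot be told apart here. Tef, a relative of Dbp, rose from 59.1 ± 8.08 to 125 ± 14.3 CPM (log2 fold change 1.08, SE 0.11, limma adjusted p = 2.07e-05). Hlf, the other D-box factor, had a log2 difference of 0.07 (limma adjusted p = 0.687). Hnf4a, a factor that maintains hepatocyte identity, fell by 0.44 on the log2 scale (limma adjusted p = 0.0369), a call lost in 10 of 22 alternatives, among them without FSH mouse 1, 2, 3 or 4 or saline mouse 2, 4 or 6. Nfe2l2, which encodes NRF2, had a log2 difference of 0.20 (SE 0.13, limma adjusted p = 0.39), and Keap1 of -0.01 (limma adjusted p = 0.947).

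The steps before and after the transferase reaction gave a mixed picture. Of 41 genes of glutathione synthesis, reduction, export and mercapturate formation, 36 were tested, 3 rose and 6 fell, with a median log2 fold change of -0.02. Over all tested genes 6.19% rose and 4.41% fell, so the count that rose is near its share. All 4 that changed among the 12 tested genes of synthesis and salvage fell. Gclc, the catalytic subunit of the enzyme that sets the rate of glutathione synthesis, was at 134, 189, 175, 147 and 170 CPM in FSH mice 1, 2, 3, 4 and 6, and at 226 to 474 CPM with a median of 318 in saline. Every FSH liver lay below every saline liver, and Gclc fell to 0.488 times the saline mean (SE 0.16 on the log2 scale, 95% interval -1.34 to -0.66, limma adjusted p = 0.0013). The partner subunit Gclm had a log2 difference of -0.07 (limma adjusted p = 0.773).

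Chac1, an enzyme that breaks glutathione down, fell from 6.83 ± 1.90 to 2.92 ± 1.33 CPM (log2 fold change -1.14, limma adjusted p = 0.00543). Gclc stood at the edge of the log2 threshold of 1, with fold changes of -1.104 to -0.891 over the alternatives, nearest 0 without saline mouse 5, and Chac1 fell short of it without both livers numbered 2 (-0.923). Gss, which completes glutathione synthesis, and Ggct, which works on its breakdown products, fell by 0.81 and 0.63 on the log2 scale (limma adjusted p = 0.00126 and 0.00704). Both were named once their values were known. The peroxidases and reducing enzymes went both ways. Txnrd3 rose by 0.87 (limma adjusted p = 0.000974) and Glrx3 by 0.34 (limma adjusted p = 0.0295), while Gpx3, the plasma peroxidase, fell by 0.55 (limma adjusted p = 0.0433). In export and mercapturate formation Acy1, which removes acetyl groups from amino acid conjugates, rose by 0.82 (limma adjusted p = 0.000109) and the efflux pump Abcc5 fell by 0.46 (limma adjusted p = 0.0471). Without single mice, the call was lost for Glrx3 with FSH mouse 1, 2, 3 or 4 or saline mouse 3 or 5 left out, for Gpx3 with FSH mouse 1, 2, 3 or 6 or saline mouse 1, 3, 4 or 5, and for Abcc5 with FSH mouse 1, 3, 4 or 6 or saline mouse 1, 3, 4, 5 or 6.

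**Figure D5:**
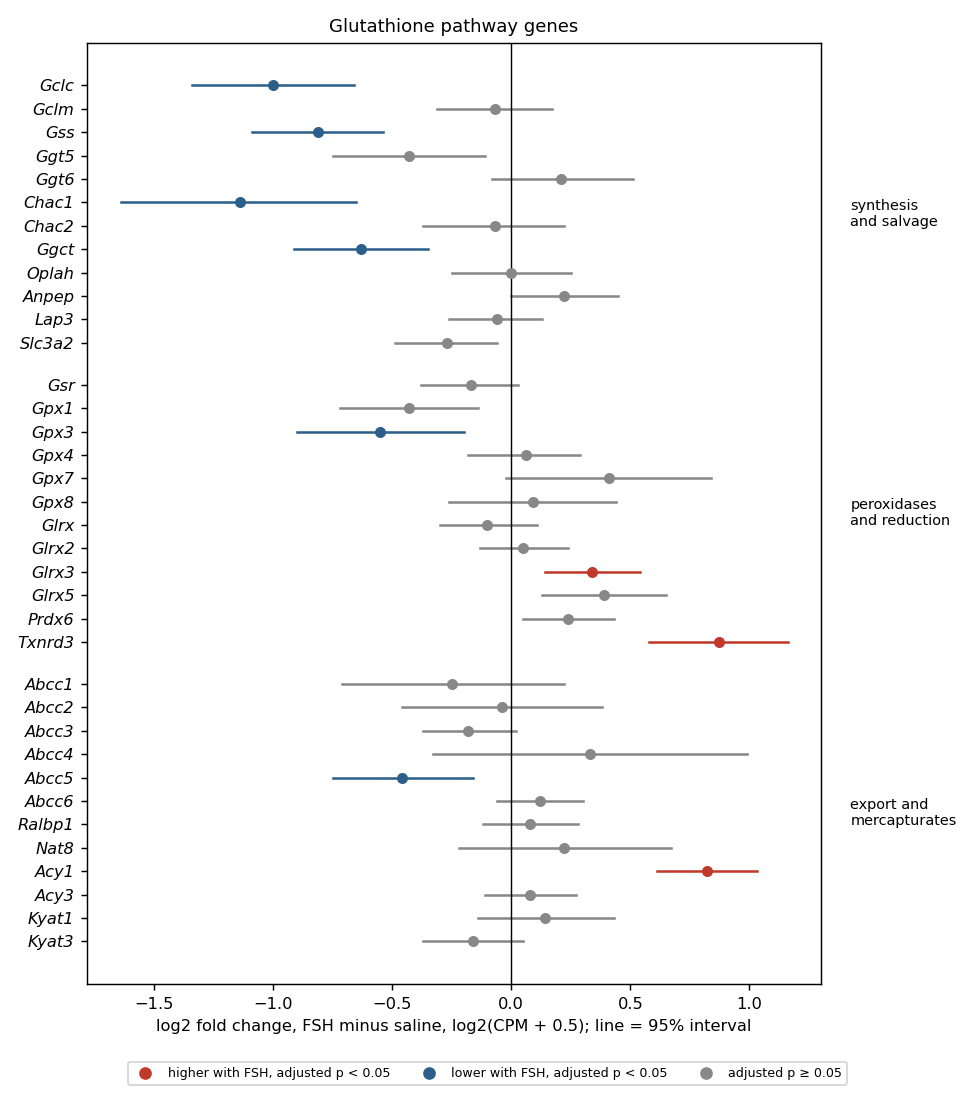
Log2 fold change of FSH against saline with its 95% interval for the 36 tested genes of the glutathione pathway, in 3 groups. Red marks genes that were higher and blue genes that were lower in FSH livers at an adjusted p under 0.05, and grey those that did not pass. In synthesis and salvage the 4 coloured genes are all blue.

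Targets of NRF2 other than GSTs were raised in 5 and lowered in 1 of 23 tested genes, against 6.19% and 4.41% of all tested genes. Their median log2 fold change was 0.15. Past both thresholds were Me1 (log2 fold change 1.62, limma adjusted p = 0.000755) and G6pdx (1.10, limma adjusted p = 0.0282), which both make NADPH and also belong to lipid synthesis, and Gclc, which fell. Nqo1, the quinone reductase, rose from 5.99 ± 0.78 to 10.8 ± 1.73 CPM (log2 fold change 0.80, limma adjusted p = 0.0012). The remaining 2, Pgd and Tkt of the pentose phosphate pathway, rose by 0.74 and 0.42. Nqo1, Pgd and Tkt were named once their values were known. G6pdx fell short of a log2 fold change of 1 without FSH mouse 1 or 2 (0.858 and 0.969). Its call was lost in 7 of 22 alternatives, among them without FSH mouse 1, 2 or 3 or saline mouse 3, 4 or 6. The call of Tkt was lost without FSH mouse 1, 3 or 4, and that of Pgd without FSH mouse 1.

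Expression of some GSTs is known to differ between the sexes in mouse liver, so sex-biased genes were read beside them. For comparison, 6.19% of all tested genes rose and 4.41% fell. Of 16 tested female-biased genes 6 rose and 0 fell, with Cux2 (log2 fold change 1.94, limma adjusted p = 0.000111) and Acot3 (1.68, limma adjusted p = 6.98e-06) past both thresholds. Of 10 tested male-biased genes 1 rose and 3 fell. Past both thresholds were Nudt7, which rose by 1.37, Elovl3, which fell by 1.58, and Selenbp2, which fell by 1.03 on the log2 scale. Selenbp2 fell short of 1 without FSH mouse 3 (-0.828) or saline mouse 3 or 4 (-0.993 and -0.891). The part of these patterns in the GST values was not tested.

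Hepatocyte markers were abundant in all livers, with a summed level of 103100 to 121500 CPM with FSH and 98240 to 127300 CPM with saline over 8 genes, 1 of which, Cyp3a11, fell. Over all tested genes 10.6% changed in either direction, and 1 call in a list of 7 to 9 genes is close to that share. Of 9 pericentral markers 1 rose (Lect2), with 6 higher and 3 lower in sign. Glul, Oat and Tbx3 had log2 differences of 0.30, 0.49 and 0.80 that did not pass (limma adjusted p = 0.0513, 0.0753 and 0.0756). Of 8 periportal markers 2 rose (Gls2 and Ass1) and 1 fell (Cyp2f2). Of 7 tested cholangiocyte markers 1 passed, with sums of 49.56 to 72.08 CPM with FSH against 39.49 to 57.36 CPM with saline that came mostly from Spp1 (limma adjusted p = 0.21). Krt7 rose (log2 fold change 0.69, limma adjusted p = 0.00731) with no overlap between the groups, while Sox9 had a log2 difference of -0.50 (limma adjusted p = 0.0545). All 8 markers of Kupffer cells and macrophages were lower with FSH in sign and 1 passed the test, Cd68, with a summed level of 111.2 to 303.6 CPM against 182.5 to 360.3 CPM. All 9 stellate cell markers were likewise lower in sign, with 1 past the test, Lum, and sums of 228.7 to 342.5 against 274.2 to 387.1 CPM. Of 7 endothelial markers 5 were lower in sign and 1 fell, Lyve1 (limma adjusted p = 0.0121), with sums of 122.9 to 184.5 against 144.1 to 168.9 CPM. Of 4 tested lymphocyte and 5 tested erythroid markers 0 passed by limma. Of the pancreatic markers 9 of 11 were under 0.5 CPM, and of the adipocyte markers 5 of 7, with Fabp4 lower (limma adjusted p = 0.0342). The markers named here were picked once their values were known. The part of these cell types in the GST differences was not tested.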

How the data were processed

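Liver RNA was sequenced as pairs of 100-base reads on an Illumina HiSeq instrument from NEBNext Ultra libraries. The submitters' processing notes name FastQC 0.11.2, cutadapt, Trim Galore 0.3.3, STAR, RSEM and the build mm10. The authors deposited CPM values with no scaling between libraries. Every value was a whole number of reads within 0.1 read (100%), and how RSEM's estimates became whole numbers was not given in the sources used here. Symbols, positions and transcripts came from GENCODE M21 (GRCm38), with 1233 identifiers unnamed.

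The 12733 genes averaging 0.5 CPM or more entered limma 3.58.1 in R 4.3.3 as log2(CPM + 0.5), with a trend of variance on intensity and Benjamini-Hochberg correction. Single genes were also tested by exact permutation over 462 splits. Intervals are for the log2 difference between the group means. They rest on limma's standard error, which combines the spread between these mice with that trend. They do not give the range of single livers. edgeR 4.0.16 was run on the recovered reads as an alternative, beside other pseudocounts, filters and scalings, array weights, a replicate block and leaving out each mouse. The lowest mean chi-square per gene between libraries of a group was 11.4, where sampling noise alone gives about 1. In simulated data limma found 90.9% of 88 genes changed 2-fold among 12665, with 7.35% false calls. There every gene was given the same dispersion, 0.0307, a measure of spread beyond sampling noise. In the main fit no member reached a 2-fold change, so the rate found need not hold for them. Labels do not say whether mice shared litters or cages.

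The members and lists were chosen with earlier results of these data known. Named are all members, from each pathway and sex-biased list the genes past both thresholds or else up to 3 with the smallest p among those that passed, and all transcription factors that passed. Gstm5, Gstm7, Mgst1, Gclm, Nfe2l2, Keap1, Hlf and the cell markers fall outside this rule and were named after their values were seen, as were others where stated.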

Additional observations from a re-analysis of the deposited data

How the results depend on the processing

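Over 22 alternatives, 688 of 792 values for 36 named genes kept their direction and their side of the threshold, 88 no longer passed, 3 passed that had not, and 13 changed sign. The count of members called, 5, ranged from 3 to 6 when single mice were left out, and the count past both thresholds, 0, from 0 to 1. That count was also 1 with array weights, where Gstm2 reached 1.02, and with the replicate block, where it reached 1.06. The block leaves out saline mouse 5, and leaving out that mouse with no block gave the same 1.06. The count of other GSTs called, 4, ranged from 2 to 4 without single mice and was 2 without both livers numbered 2. Over all genes the count, 1350, ranged from 803 without FSH mouse 1 to 1659 without FSH mouse 6 when single mice were left out, and array weights gave the most, 1892. The sign changes were in members near 0. Gsta3 moved to 0.032 without both livers numbered 2 and between -0.105 and 0.036 without single mice, and Gstp1 to -0.004 in edgeR and between -0.038 and 0.091 without single mice. Gstt1 moved to 0.02 with array weights, to 0.057 with the replicate block, to 0.004 without both livers numbered 2 and between -0.059 and 0.057 without single mice. The cause of these shifts was not tested.

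Mice share replicate numbers across groups, and nothing in the labels says that a number marks a shared litter or day. Over all 12733 tested genes, the deviations of same-numbered livers correlated at 0.07, 0.36, 0.02, 0.14 and -0.07 for numbers 1, 2, 3, 4 and 6. Only FSH mouse 2 correlated best with the saline mouse of its own number. Separately, both livers numbered 2 were low for most members. With the number as a replicate block and saline mouse 5 left out, 1214 genes and 6 members were called, Gsta2 being added (adjusted p = 0.0307). TMM scaling moved the share of calls that were higher from 58.4% to 52.5%. No member had fewer than 109 reads in any liver, and the effect of depth on the calls was not tested.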
